A study of Drosophila melanogaster with 63 samples.

Results

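Chromosome 4 of Drosophila melanogaster carried 247 of the 30967 peak regions found with 5 antibodies in Kc167 cells and the Kc-MOD-GFP line, and these 247 regions are described here. They are all peaks on that chromosome in 46 peak lists, merged within each antibody where peaks shared at least 1 bp. NURF301 gave 108 regions on chromosome 4, CP190 gave 95, Su(Hw) gave 15, Mod(mdg4)67.2 gave 16 and GFP gave 13. A reference site is a region in which no fewer than 4 of the 6 mock libraries of its antibody had a peak, or 2 of the 3 libraries in the case of Mod(mdg4)67.2 and GFP. By that rule chromosome 4 held 92 NURF301, 31 CP190, 14 Su(Hw), 9 Mod(mdg4)67.2 and 9 GFP reference sites. The other 16 NURF301, 64 CP190, 1 Su(Hw), 7 Mod(mdg4)67.2 and 4 GFP regions fell below it, and none of the 247 was found in knockdown lists alone.

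The study used chromatin immunoprecipitation and sequencing to ask how the nucleosome remodeller subunit NURF301 shares chromatin with proteins of the gypsy insulator. Knockdown cells were Kc167 cells that received 5 ug of double-stranded RNA for 4 days. Double-stranded RNA against Nurf301 was followed by NURF301, CP190 and Su(Hw) precipitation in 3 libraries each. That against Cp190 was followed by NURF301 and CP190 precipitation in 2 libraries each, and that against su(Hw) by all 3 antibodies in 3 libraries each. Mock cells are Kc167 cells that the labels call mock, with no further description. Their titles form 2 series, mock2 (titled like the Su(Hw) knockdown) and mock (titled like the other knockdowns), with 3 libraries of NURF301, CP190 and Su(Hw) in each and 3 of Mod(mdg4)67.2 in the mock series. GFP was precipitated in 3 libraries of transfected cells of the Kc-MOD-GFP line; which promoter drives the fusion is not given in the labels. Both lines are female and derived from embryos. The labels do not say that replicates came from separate cultures, so every p-value measures only the spread between these libraries, which may be technical.

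Chromosome 4 is the smallest chromosome of the fly and an unusual one: most of it is packed as heterochromatin with HP1, yet its genes are transcribed, and the chromosome-specific protein POF covers them. NURF301 is the largest subunit of NURF, which slides nucleosomes with the ISWI ATPase. Su(Hw) recognises DNA of gypsy insulators through its zinc fingers and is joined there by CP190 and Mod(mdg4)67.2, which carry BTB domains, and CP190 also sits at many active promoters with other DNA-binding proteins. On Release 6 of the genome, chromosome 4 spans 1.32 Mb with 80 protein-coding genes, or 60.6 per Mb against 93.4 to 113 per Mb on the other arms (2L, 2R, 3L, 3R and X).

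Several libraries stood apart before any comparison. After NURF301 knockdown the NURF301 lists held 253, 1 and 24 peaks on the 6 chromosomes. After CP190 knockdown the CP190 lists held 1203 and 1280 peaks, and after Su(Hw) knockdown the Su(Hw) lists held 74, 77 and 96. The mock NURF301 lists held 4608 to 8226 peaks, and mock2 replicate 2 and mock replicate 3 had the shortest. CP190 lists had 5984, 7988 and 8813 peaks in mock2, against 10553, 10095 and 10467 in mock. Read numbers were not used here, and list length stands for depth. No 2 libraries shared more than 97 identical peaks.

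NURF301 was dense on chromosome 4, and its peaks there ranked high. In mock cells the chromosome had 66.4 ± 17.3 NURF301 peaks per Mb, against 52.9 ± 12.1 on the other arms (SD, n = 6 libraries). The chromosome 4 count was 103, 100 and 63 peaks in the mock libraries and 105, 54 and 101 in the mock2 libraries, and the smallest counts came from the shortest lists. The log2 ratio of the densities was 0.32 ± 0.061 (SD, n = 6), above 0 in 6 of 6 libraries (exact two-sided sign-flip permutation test, p = 0.03125, the smallest 6 libraries can give, and the same after adjustment over 3 antibodies). Set against the pericentric parts of the other arms, 18.01 Mb next to the centromeres as delimited here, which held 22.1 peaks per Mb, the log2 ratio was 1.61 (exact sign-flip permutation test, p = 0.03125, adjusted p = 0.0573). Per protein-coding gene instead of per Mb, the log2 ratio of chromosome 4 over the other arms was 1.10, with the pericentric parts left out it was 0.19, and with each list shortened to its strongest peaks, as many as the shortest list holds, it was 0.53.

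Ranked by fold enrichment within each list, the median NURF301 peak of chromosome 4 stood at percentile 78.4 ± 5.94, against 49.8 for the median peak of the other arms. The difference ranged from 21.9 to 36.6 percentile points and was positive in 6 of 6 mock libraries, although its adjusted p of 0.0938 from the exact sign-flip permutation test missed 0.05. Between 35.6% and 48.1% of the NURF301 peaks of chromosome 4 lay in the top 10% of their list. Chromosome 4 held the first-ranked peak of the whole list in 3 of the 6 mock libraries. When peaks were ranked by -log10 q instead, the difference shrank to 1.54 percentile points. NURF301 peaks on the chromosome were also slightly wider, with a mean of the library medians of 611.8 bp against 566.8 bp (log2 ratio 0.11, adjusted p = 0.0469, exact sign-flip permutation test). In the pericentric parts the median NURF301 peak stood at percentile 62.6, below chromosome 4 in 6 of 6 libraries (adjusted p = 0.0573, exact sign-flip permutation test). Widths there were near those of chromosome 4, at 598.1 bp (log2 ratio 0.029, adjusted p = 0.375, exact sign-flip permutation test).

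**Figure D1:**
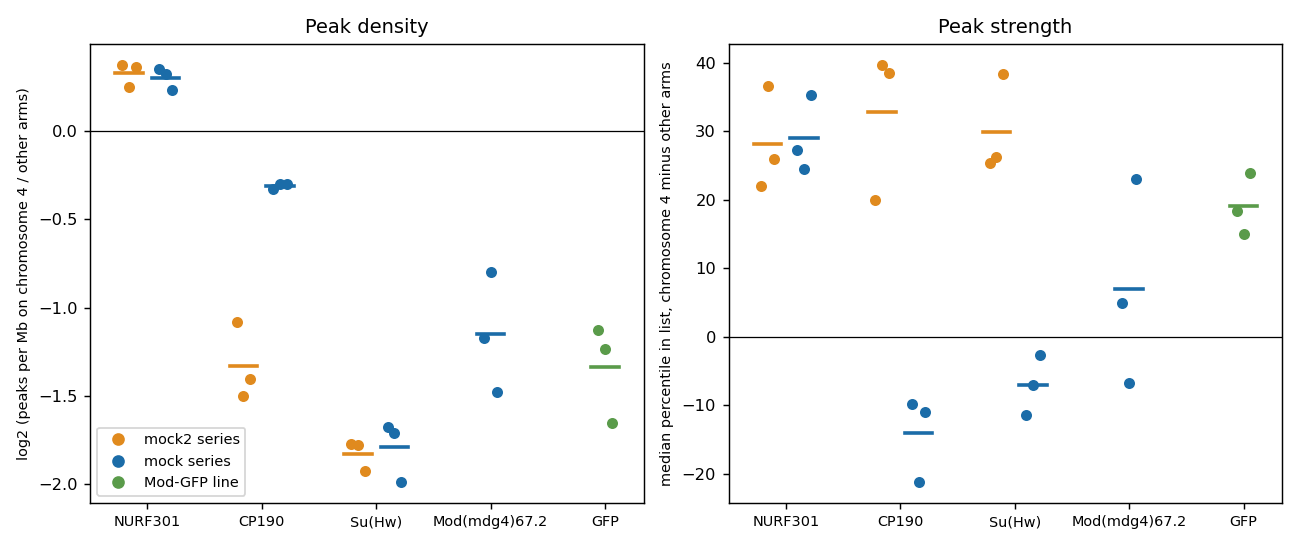
Peaks on chromosome 4 against the other arms in each mock library: log2 ratio of peaks per Mb (left) and difference of the median within-list percentile of fold enrichment (right), with a point per library and a bar at each series mean. NURF301 lies above 0 in both panels in all 6 libraries, Su(Hw) lies lowest in density, and the mock2 and mock libraries of CP190 and Su(Hw) fall on opposite sides of 0 in strength.

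Of the 10 strongest NURF301 sites 9 were at gene boundaries, within 500 bp of a gene end. The first by mean percentile, 99.9, was chr4:42225-44160 (Release 6, counted from 1) at PlexB, a receptor for semaphorins that guides axons. Its fold enrichment was 13.1 and 11.4 after CP190 knockdown, 7.77, 8.04 and 6.79 after Su(Hw) knockdown and 8.58 in 1 of 3 NURF301 knockdown libraries. In mock cells it was 19.7, 30.3 and 34.2, and in mock2 cells 33.9, 15.7 and 30.1. Fold enrichment is the authors' value and is not comparable between lists, but the ranks of this site were 24, 1 and 13 in mock and 4, 3 and 3 in mock2, so it was among the first peaks of every mock list.

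The next sites included genes of signalling and synapses. A site at myo, a ligand of the TGF-beta family (chr4:694791-696377), stood at mean percentile 99.8 and ranked 20, 13 and 31 in mock and 18, 10 and 10 in mock2. The site of anne (chr4:131733-132780) ranked 4, 16 and 36 in mock and 1, 58 and 5 in mock2. The site of Crk, an adaptor protein of tyrosine kinase signalling, ranked between 4 and 47 in every mock list. Others of the first 10 were at 4E-T, a partner of the translation factor eIF4E, inside CaMKII, a calcium-dependent kinase of synapses, at Dyrk3 and Cadps, at the ephrin receptor Eph, and at Gyf and unc-13, the last a factor of synaptic vesicle release. None of these 10 overlapped a CP190 reference site, a rule that a CP190 site found in the mock series alone could not meet.

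NURF301 sites ran along almost the whole chromosome. The first began at position 42225 and the last ended at 1295621, with a median spacing of 9.49 kb, against 7.24 kb on the other arms, and a largest gap of 80.2 kb. Only 1 of 14 windows of 100 kb had no NURF301 site, while 7 had no Su(Hw) site and 8 no Mod(mdg4)67.2 site. The window that starts at 0.4 Mb had the most sites of each of the 5 antibodies. These were 12 NURF301, 7 CP190, 4 Su(Hw), 4 Mod(mdg4)67.2 and 4 GFP sites. It opens in a stretch without protein-coding genes, between the zinc finger gene dati, which ends at 395605, and lgs, which begins at 436957. Sites between genes are named here by the nearest gene, whatever its distance. Of the 92 NURF301 sites, 50 (54.3%) lay within 500 bp of either end of a protein-coding gene, 25 inside genes and 17 between them. The share at gene boundaries was 72.3% on the other arms and 30.7% in their pericentric parts, and such windows cover 11% of chromosome 4 and 15.1% of the other arms.

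Counted by gene, 56 of the 80 protein-coding genes of chromosome 4 (70%) had a NURF301 site at a boundary, against 56.2% of the genes on the other arms and 59.7% of pericentric genes. Of 13 signalling and guidance genes 12 had one, the exception being the kinase gene Asator, and of 11 housekeeping genes 10 had one, the exception being the kinesin gene Kif3C. Among 16 genes for transcription and chromatin factors, 11 had a site, including the Hedgehog effector ci, the Wnt effector pan, the Pax genes ey and sv, and the Polycomb recruiter pho. The 5 without one were NfI, dati, zfh2, onecut and fd102C. Of 10 synapse, channel and muscle genes 5 had a site, namely Ank, PMCA, Ekar, unc-13 and Cadps, and of the 30 genes in no list 18 had one. These counts are descriptions of lists that were chosen with earlier results known, and no test was made of them.

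CP190 was sparser on chromosome 4 than on the other arms, and its counts there differed between the mock series. Chromosome 4 had 42.6 ± 22.1 CP190 peaks per Mb, against 67.4 ± 13.3 on the other arms (SD, n = 6). The log2 ratio was -0.82 ± 0.58 and below 0 in 6 of 6 libraries (exact sign-flip permutation test, adjusted p = 0.03125). Counts on the chromosome were 28, 28 and 33 in mock2 and 83, 81 and 84 in mock, without overlap. The log2 ratio was accordingly -1.33 in mock2 and -0.31 in mock, a difference of -1.02 (exact permutation test, p = 0.1, the smallest that 3 against 3 libraries can give). Per protein-coding gene the pooled log2 ratio was -0.03 and no longer passed the test.

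Of 80 CP190 sites found in at least 2 of the 3 mock libraries on chromosome 4, 27 (33.8%) were also found in at least 2 of the 3 mock2 libraries. On the other arms 75.8% of 10022 such sites were, with 73.9% to 79.0% on each arm, and in the pericentric parts 32.5% of 317. The share varied with strength, here in 4 equal classes of all CP190 sites of the mock series. In the weakest class 3.1% of 32 sites of chromosome 4 were found in mock2, against 26.2% on the other arms, and in the next class 22.2% of 18 against 80.5%. In the class after it the shares were 44.4% of 9 and 97.1%, and in the strongest class 85.7% of 21 and 99.1%. Chromosome 4 was below the other arms in each class, and pericentric parts lay between them in each.

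**Figure D2:**
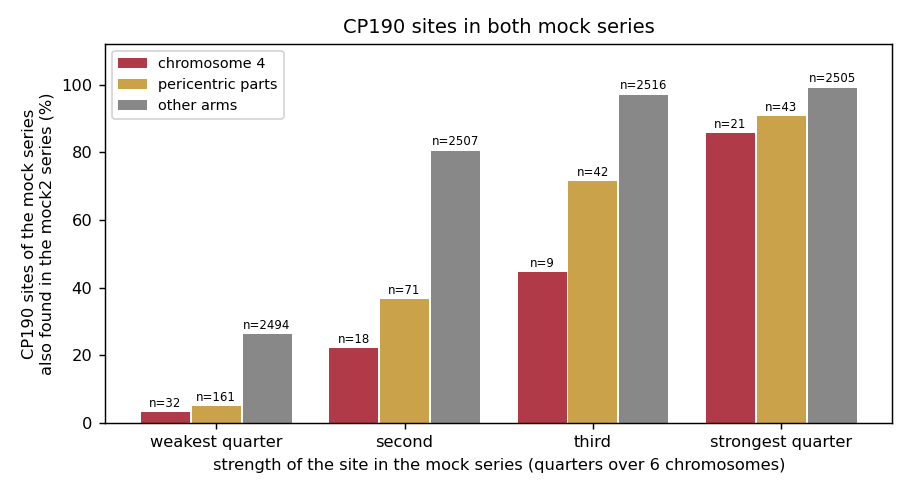
Share of CP190 sites of the mock series that were also found in the mock2 series, by strength class in the mock series, on chromosome 4, in the pericentric parts of the other arms and on the other arms. Bars give percent of the number of sites written above each, and the chromosome 4 bars run from 3.1% in the weakest class to 85.7% in the strongest, below the other arms in each.

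The 53 CP190 sites of chromosome 4 that mock2 lacked were weak and narrow and lay with NURF301. Their median percentile in the mock series was 26.3 and their median width 427 bp, against 82.7 and 908 bp for the 27 found in both series. NURF301 reference sites overlapped 46 of the 53 (86.8%) and 21 of the 27, whereas Su(Hw) sites overlapped 0 of the 53 and 13 of the 27. Of the 53, 36 were at gene boundaries. The sites of the other arms that mock2 lacked were weak and narrow too, with a median percentile of 16.9 and width of 423 bp, and 49.9% of them overlapped NURF301 and 23.5% Su(Hw). The pericentric sites that mock2 lacked were nearer to those of chromosome 4 in these overlaps. These 214 sites had a median percentile of 18.1 and width of 430.5 bp, and 76.2% overlapped NURF301 and 0.93% Su(Hw). With both series counted apart, 20% of chromosome 4 genes had a CP190 boundary site in mock2 and 65% in mock, against 51.6% and 59.4% of genes on the other arms and 12.1% and 45.6% of pericentric genes. None of the 53 sites had a CP190 peak after NURF301 knockdown, against 5.03% of the 2425 such sites on the other arms and 1.4% of the 214 pericentric ones. After Su(Hw) knockdown 1 of the 53 had a peak, against 4% on the other arms and 2.34% in the pericentric parts. After CP190 knockdown no such site had one on chromosome 4 or on the other arms. What the mock2 and mock titles stand for is not stated in the labels, and batch and series cannot be told apart.

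The strongest CP190 reference site was inside pan. The pan site (chr4:89539-90446) had mean percentile 98.9 and ranked 56, 27 and 9 in mock2 and 50, 3 and 470 in mock. A boundary site of ey, the eye master regulator (chr4:721653-722830), and a site between dati and lgs (chr4:415354-417047) followed with percentiles of 97.3 and 96.8. The next ones were at Actbeta, an activin ligand, a further site between dati and lgs, and a pair at mGluR, the metabotropic glutamate receptor. Sites at myo and ey, at the Sox gene Sox102F, and at CG31999 and yellow-h completed the first 10. By gene, 18 of the 80 (22.5%) had a CP190 reference site at a boundary, against 53.8% on the other arms. The 18 were 5 of 16 transcription and chromatin factors (ci, pan, ey, Sox102F and sv), 3 of 13 signalling genes (Asator, myo and Actbeta), 3 of 10 synapse, channel and muscle genes (PMCA, bt and mGluR), 2 of 11 housekeeping genes (Tdg and gw) and 5 of 30 others. Of the 31 CP190 reference sites 14 (45.2%) were at gene boundaries, 9 inside genes and 8 between them, against 59.3% at boundaries on the other arms and 25.6% in their pericentric parts.

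Su(Hw), Mod(mdg4)67.2 and GFP were rare. Su(Hw) had 10.4 ± 1.41 peaks per Mb on chromosome 4 and 36.1 ± 3.94 on the other arms (SD, n = 6), with 15, 15 and 14 peaks in mock2 and 14, 14 and 10 in mock. The log2 ratio was -1.81 ± 0.12, negative in 6 of 6 libraries (exact sign-flip permutation test, adjusted p = 0.03125). Mod(mdg4)67.2 gave 9, 16 and 6 peaks on the chromosome and GFP gave 10, 12 and 3, at log2 density ratios of -1.15 and -1.34, for which 3 libraries allow no p below 0.25 in the exact test. Against the pericentric parts, Su(Hw) had 10.4 and 3.02 peaks per Mb (log2 ratio 1.77) and CP190 had 42.6 and 12 (log2 ratio 1.86), each positive in 6 of 6 libraries with an adjusted p of 0.0573 in the exact sign-flip permutation test, which missed 0.05. Su(Hw) peaks were narrower on chromosome 4, at 539 bp against 637 bp (log2 ratio -0.24, adjusted p = 0.0469, exact sign-flip permutation test). Pericentric Su(Hw) peaks had 575.2 bp, from which chromosome 4 differed less (log2 ratio -0.094, adjusted p = 0.0859, exact sign-flip permutation test).

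The 14 Su(Hw) sites named few places. In order they lay at ci (chr4:47165-47844), in pan (chr4:89784-90220) and in CG33978 (chr4:160890-161645). A cluster of 3, called dati sites here, followed between dati and lgs (chr4:406790-407365, chr4:413745-414210 and chr4:415338-416059). Then came 1 at Asator (chr4:490014-490701) and 1 near the forkhead gene fd102C (chr4:847045-847515). The receptor gene mGluR held 3 (chr4:941241-941928, chr4:947021-947489 and chr4:948657-949258), and the last were at Actbeta (chr4:1084502-1085114), between sv and the calsyntenin gene Cals (chr4:1112760-1113808) and in CG32017 (chr4:1146344-1146875). No genome sequence was used here, so no sequence of these sites is shown. The first mGluR site was the strongest, with mean percentile 96.8, and the third dati site and the pan site were the weakest by the same measure. The 9 Mod(mdg4)67.2 sites lay over those of sv and Cals, the first mGluR site, all 3 dati sites, Asator, CG33978, Actbeta and ci. The first of them by mean percentile, that between sv and Cals, had Mod(mdg4)67.2 fold enrichments of 11.03, 18.8 and 7.27.

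Co-occupancy on chromosome 4 differed from the other arms in both directions. NURF301 peaks of a mock library overlapped a CP190 reference site in 23.7% ± 1.83 of cases on chromosome 4 and in 76.9% ± 7.48 on the other arms (SD, n = 6). They overlapped Su(Hw) sites in 7.04% against 14.4% and Mod(mdg4)67.2 sites in 4.85% against 13.01%. In the other direction, Su(Hw) peaks of chromosome 4 overlapped CP190 sites in 100% against 75.3%, NURF301 sites in 54.0% against 23.5% and Mod(mdg4)67.2 sites in 67.1% against 41.4%. CP190 peaks overlapped NURF301 sites in 78.0% against 65.2%. Each of these 7 differences had an adjusted p of 0.0402 over 9 ordered pairs in the exact sign-flip permutation test and one direction in 6 of 6 libraries. CP190 peaks with Su(Hw) (30.7% against 39.9%, adjusted p = 0.246) and with Mod(mdg4)67.2 (20.7% against 23.3%, adjusted p = 0.406) did not pass the same exact permutation test.

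The size of 4 of these differences depended on how partner sites were chosen. With CP190 sites of the mock series alone, NURF301 peaks of the mock libraries overlapped CP190 in 74.1% on chromosome 4 and 87.4% on the other arms, a difference of -13.3 points, while mock2 sites and libraries gave 22% and 73.7%. With partner sites found in every mock library, the difference for CP190 peaks with NURF301 was 0.09 points and that for Su(Hw) peaks with NURF301 5.15 points. With summits extended by 150 bp in place of whole peaks, the difference for Su(Hw) peaks with CP190 was 2.08 points and no longer passed the test.

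**Figure D3:**
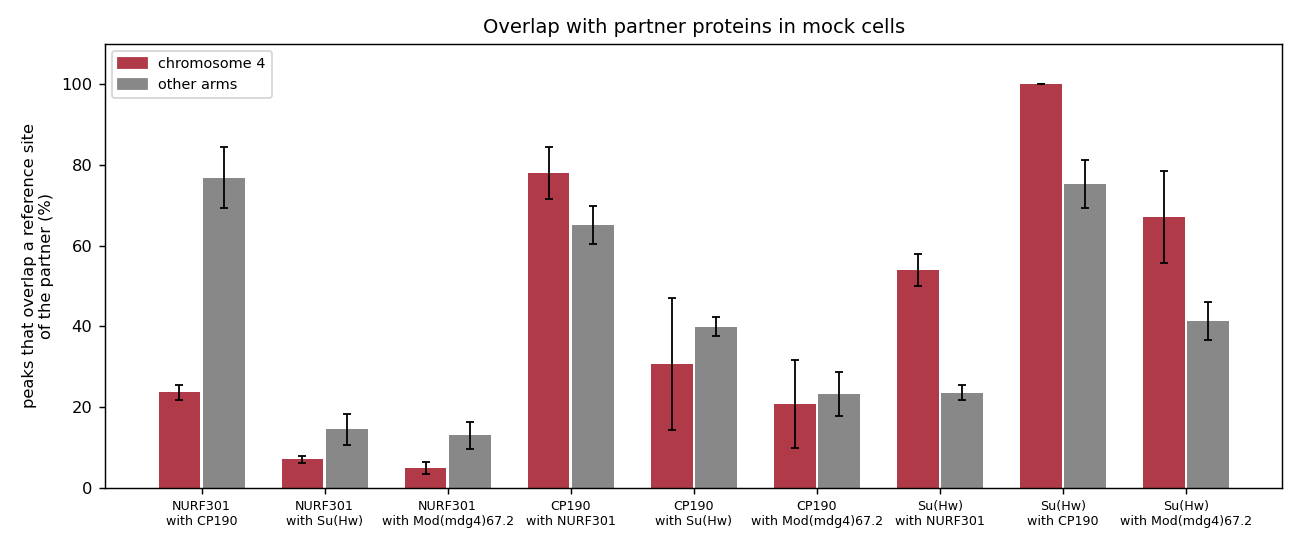
Percent of peaks in a mock library that overlap a reference site of the partner, on chromosome 4 and on the other arms; bars are means and error bars SDs over 6 libraries. NURF301 with CP190 shows the widest gap, 23.7% against 76.9%, and Su(Hw) overlaps each of its partners more often on chromosome 4.

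By reference sites, 24 of the 92 NURF301 sites of chromosome 4 (26.1%) overlapped CP190, against 75.3% on the other arms and 18.2% of 407 pericentric sites. Without CP190, Su(Hw) or Mod(mdg4)67.2 stood 68 of the 92 (73.9%), against 24.4% on the other arms, and 17 had CP190 alone. Counts with and without CP190 depended on the mock series. A CP190 peak lay at 66, 65 and 67 of the 92 sites in the mock libraries and at 22, 22 and 23 in mock2. On the other arms the shares were 85.7% to 87.7% in mock and 60.0% to 74.25% in mock2. Of the 31 CP190 sites, 22 overlapped NURF301, 13 Su(Hw) and 9 Mod(mdg4)67.2. All 14 Su(Hw) sites overlapped CP190, 7 overlapped NURF301 and 9 overlapped Mod(mdg4)67.2, where the other arms had 77.7%, 24.1% and 42.7%. The 43 pericentric Su(Hw) sites had 88.4%, 41.9% and 51.2%, each between the chromosome 4 value and that of the other arms. Counted by peaks of the mock libraries instead of sites, the pericentric share of Su(Hw) with CP190 was 73.8%, against 100% on chromosome 4. No Su(Hw) site of chromosome 4 was without a partner, against 21.98% on the other arms. All 9 Mod(mdg4)67.2 sites overlapped both CP190 and Su(Hw), and 5 overlapped NURF301. Of the 9 GFP sites from the fusion line, 8 overlapped a Mod(mdg4)67.2 site of mock cells, 9 CP190, 8 Su(Hw) and 7 NURF301.

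Knockdowns were compared by recovery, the share of reference sites that had a peak in a library. A mock library was scored at those sites that 3 or more of the other 5 held, leaving it no part in choosing them. NURF301 peaks of chromosome 4 were nearly gone after NURF301 knockdown, at 6, 0 and 1 of 92 sites, or 2.54% ± 3.49 against 84.8% ± 21.8 in mock cells (SD, n = 3 and 6, exact two-sided permutation test, p = 0.02381, adjusted p = 0.0357). The other arms gave 1.23% and 85.9%, and their pericentric parts 4.91% and 79.9%. The difference between the chromosomes, recovery on chromosome 4 minus that on the other arms in knockdown less the same in mock libraries, was 2.41 points (exact permutation test, adjusted p = 0.25). The 7 sites with a peak in 1 of 3 knockdown libraries included those of PlexB, CG31998, gw and CG46466, Slip1 and CG11360, Gyf and unc-13, and PIP4K, each at a gene boundary with a mean percentile of at least 95.9 in mock cells.

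Single sites were tested for presence by Fisher's exact test with adjustment over all sites of 6 chromosomes that could reach 0.05. At these library numbers a site was called lost where every mock library and no knockdown library had a peak. After NURF301 knockdown 41 of 89 NURF301 sites tested on chromosome 4 were called lost, where 51.6% of all tested sites were (adjusted p = 0.0231, Fisher's exact test). They are 41 of the 48 chromosome 4 sites found in every mock library, where the share over 6 chromosomes was 93.9%. The strongest were at myo, anne, Crk, 4E-T, CaMKII, Dyrk3 and Cadps, Eph, the repair factor Rad23, Ank and the chromatin cofactor Hcf.

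**Figure D4:**
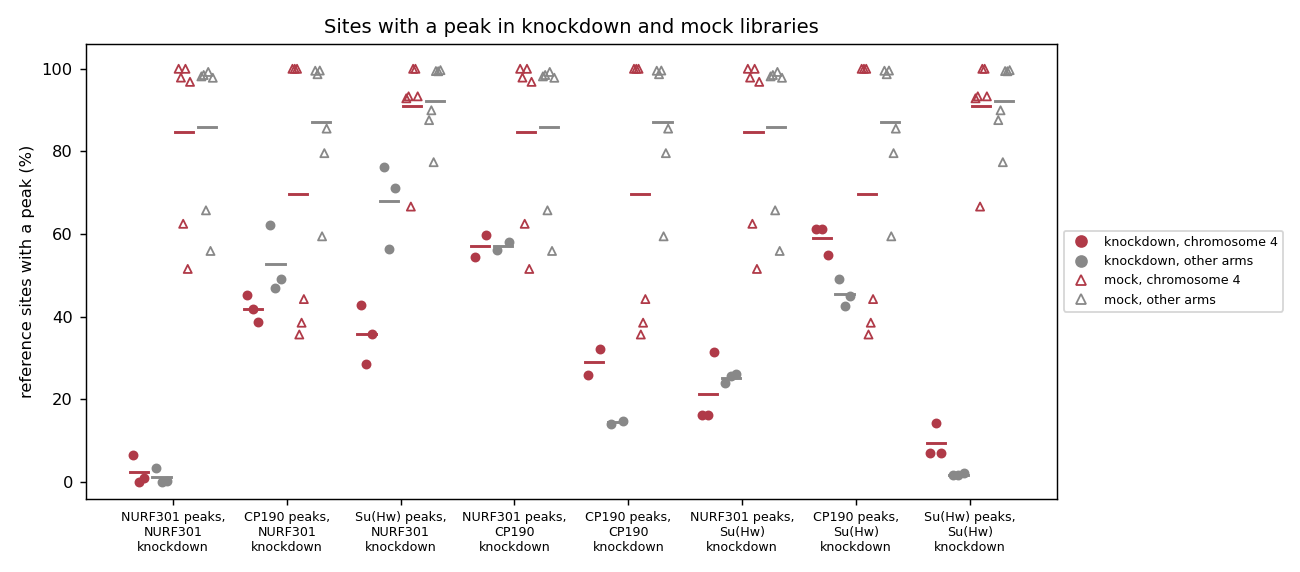
Percent of reference sites with a peak in each knockdown library (filled circles) and mock library (open triangles), on chromosome 4 and on the other arms, for the 8 comparisons; bars are means. After NURF301 or Su(Hw) knockdown the chromosome 4 circles of NURF301 and Su(Hw) peaks lie below every chromosome 4 triangle, whereas for CP190 peaks the 3 mock2 libraries lie between 35.7% and 44.3% and those of mock at 100%.

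Su(Hw) peaks also fell on chromosome 4 after NURF301 knockdown. Of the 14 sites 6, 4 and 5 had a peak, or 35.7% ± 7.14 against 91.0% ± 12.4 in mock cells (SD, n = 3 and 6, exact permutation test, adjusted p = 0.0357). In the pericentric parts recovery was 55.8% ± 8.06 against 86.3%, between chromosome 4 and the other arms in knockdown cells. On the other arms recovery was 67.9% ± 10.3 against 92.2%, and the difference between the chromosomes was -31.0 points (exact permutation test, p = 0.02381, adjusted p = 0.0714, which missed 0.05). It passed at sites found in every mock library (-26.5 points) and with extended summits (-37.6 points; each adjusted p = 0.0476, exact permutation test). Of 9 tested sites 4 were called lost, against 26.8% over all tested sites (adjusted p = 0.0444, Fisher's exact test), and these were 4 of the 10 found in every mock library, where the share over 6 chromosomes was 10.7%. They were the second dati site and those of ci, CG32017 and CG33978. Without NURF301 knockdown replicate 2 or 3 of Su(Hw) no site of chromosome 4 was called, and without mock replicate 3 there were 7. These counts, given without the shares over 6 chromosomes, show only how the calls depend on single libraries. The share of the whole Su(Hw) list on chromosome 4 was 0.158% ± 0.010 after NURF301 knockdown and 0.284% ± 0.024 in mock cells (SD, exact permutation test, p = 0.02381).

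CP190 peaks after NURF301 knockdown gave values that differed with the mock series they were set against. Of the 31 sites 14, 13 and 12 had a peak, or 41.9% ± 3.23 against 69.8% ± 33.2 in mock cells (SD, n = 3 and 6, exact permutation test, p = 0.405, adjusted p = 0.486). The mock value joins 100% in each library of mock and 35.7% to 44.3% in mock2, whose libraries were scored at 70 sites against 31 for those of mock. With both series pooled in the same way, recovery was 52.8% against 87.1% on the other arms and 30.3% against 67.6% in their pericentric parts. Against the mock series, whose titles match, recovery at its 80 sites was 16.2% ± 1.25 after knockdown and 95.5% ± 1.52 in mock, while the other arms gave 43.8% and 98.3%. The difference between the chromosomes was then -24.7 points (exact permutation test, p = 0.1, the smallest possible), against 6.46 points with both series pooled (p = 0.619, exact permutation test). With both series pooled it was -20.8 points at sites found in every mock library (adjusted p = 0.0476, exact permutation test) and -7.73 points when sites were weighted to equal strength. No site was called lost, on chromosome 4 or elsewhere (0% of 4759 tested, lowest adjusted p = 0.0535, Fisher's exact test), though 13 sites of chromosome 4 and 2301 in all had an unadjusted p under 0.05. Leaving out 1 mock library raised the count on chromosome 4 to 11 for each of mock replicates 1, 2 and 3 and mock2 replicate 2, and to 13 for mock2 replicate 1. Shares over 6 chromosomes at these settings are not given here, so the counts show only how the calls depend on single libraries. Of the 25 sites of chromosome 4 found in every mock library 11 had no peak in any NURF301 knockdown library, where the share over 6 chromosomes was 18.3%.

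After CP190 knockdown, CP190 peaks remained at 8 and 10 of the 31 sites. Recovery was 29.0% ± 4.56 against 69.8% ± 33.2 in mock cells (SD, n = 2 and 6, exact permutation test, p = 0.0714, the smallest possible), and in knockdown cells 14.5% on the other arms and 7.02% in their pericentric parts. At the 80 chromosome 4 sites of the mock series alone it was 11.2% against 95.5%. The difference between the chromosomes was 31.9 points with both series pooled (exact permutation test, p = 0.0714, the smallest possible) and 2.15 points against the mock series. The same 8 sites had a peak in both knockdown libraries, or 32% of the 25 present in every mock library, against 18.8% over 6 chromosomes. They lay at pan (chr4:68329-69624), between dati and lgs (chr4:415354-417047), in Asator (chr4:485964-487390), at Tdg and Pur-alpha (chr4:556371-559464), at myo and ey (chr4:696467-697959), at Sox102F (chr4:834681-836393), near fuss (chr4:979393-980883) and between sv and Cals (chr4:1112496-1113999). Tdg encodes a DNA glycosylase, and fuss a member of the Ski family of corepressors. Of 25 tested sites 15 were called lost, against 90.1% of all tested sites (adjusted p = 0.0396, Fisher's exact test). They are also 15 of the 25 sites found in every mock library, where the share was 77.1%, and with any 1 of the 6 mock libraries left out no site was called. Among them were the strongest site, in pan, and the ey site after it.

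NURF301 peaks were present at most chromosome 4 sites after CP190 knockdown. Of the 92 sites 50 and 55 had a peak, or 57.1% ± 3.84 against 84.8% ± 21.8 in mock cells (SD, n = 2 and 6, exact permutation test, p = 0.286). Knockdown recovery was 57.2% on the other arms and 44.8% in their pericentric parts. The difference between the chromosomes was 1.01 points (p = 0.714, exact permutation test). In both knockdown libraries 39 of the 48 sites present in every mock library had a peak (81.2%), near the 80.4% over 6 chromosomes. The 3 of those 48 with none, where the share over 6 chromosomes was 8.48%, were at the Mediator subunit gene MED26, in pan and between dati and lgs, a Wnt cofactor gene. No site was called lost (0% of 1091 tested, lowest adjusted p = 0.111, Fisher's exact test), and 3 on chromosome 4 and 352 in all had an unadjusted p under 0.05. By gene, 48 of the 56 genes with a NURF301 boundary site (85.7%) had a peak there in at least 1 library, against 82.8% on the other arms, and 46 (82.1%) in both, against 71.2%.

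NURF301 peaks of chromosome 4 fell after Su(Hw) knockdown. Of the 92 sites 15, 15 and 29 had a peak, or 21.4% ± 8.79 against 84.8% ± 21.8 in mock cells (SD, n = 3 and 6, exact permutation test, adjusted p = 0.0357). Knockdown recovery was 25.2% on the other arms and 23.9% in their pericentric parts. The difference between the chromosomes was -2.69 points (exact permutation test, p = 0.476, adjusted p = 0.571), or 3.62 points at a -log10 q of at least 20. Of 65 tested sites 17 were called lost, against 28.5% of all tested sites (adjusted p = 0.0417, Fisher's exact test), and they were 17 of the 48 found in every mock library, where the share was 35.1%. Without Su(Hw) knockdown replicate 3 or without mock2 replicate 2 of NURF301, 29 sites of chromosome 4 were called, and with that minimum of q there were 10. Shares over 6 chromosomes at these settings are not given here, so the counts show only how the calls depend on the setting. The strongest lost sites were those of MED26, the bHLH factor gene Mitf, the translation initiation factor gene eIF4G1, the zinc transporter gene Zip102B, CaMKI, the TFIID subunit gene Taf3, pan, Arl4, a site between myo and ey, and a site at ND-49 and Ephrin.

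Su(Hw) overlapped 7 of the 92 NURF301 sites. At the 7 sites none of the 3 knockdown libraries had a NURF301 peak, and at the other 85 recovery was 23.1%. The other arms gave 2.8% and 29.3%. Mock recovery on chromosome 4 was 79.2% ± 28.1 at sites with Su(Hw) and 85.3% ± 21.3 at sites without. A peak in every library of both groups was found at 9 of the 48 sites present in every mock library (18.8%, against 23.7% over 6 chromosomes), PlexB, myo, anne, CaMKII and Eph among them. By gene, 38 of the 56 genes with a NURF301 boundary site had a peak in at least 1 Su(Hw) knockdown library (67.9%, against 58.3% on the other arms), and 12 had one in all 3 (21.4%, against 23.3%). The 38 held 9 of 10 housekeeping genes, 8 of 12 signalling genes, 3 of 5 synapse, channel and muscle genes and 3 of 11 transcription and chromatin factors, and the 12 held 2, 4, 1 and 0 of them in the same order. The lists were not tested against each other.

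For CP190 after Su(Hw) knockdown, values again differed with the mock series. Of the 31 sites 19, 19 and 17 had a peak, or 59.1% ± 3.72 against 69.8% ± 33.2 in mock cells (SD, n = 3 and 6, exact permutation test, p = 0.548), where the other arms gave 45.5% and 87.1% and their pericentric parts 41.9% and 67.6%. The difference between the chromosomes was 30.9 points (exact permutation test, p = 0.02381, adjusted p = 0.0714, which missed 0.05). Against mock2 alone, whose titles match, recovery at 27 sites was 65.4% against 97.5%, the other arms gave 48.7% and 91.7%, and the difference between the chromosomes was 10.9 points (p = 0.3, exact permutation test). Without mock2 replicate 1, 2 or 3 of CP190 the pooled difference was 3.17, -0.25 or -0.20 points, and at sites found in every mock library it was 9.22 points. Of 53 tested sites 7 were called lost, against 37.3% of all tested sites (adjusted p = 0.0318, Fisher's exact test), and they were 7 of the 25 found in every mock library, where the share was 37.5%. All 7 were at Su(Hw) sites: the first mGluR site, CG33978, the second dati site, sv and Cals, CG32017, Asator and ci.

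Su(Hw) peaks themselves were lost after Su(Hw) knockdown at 8 of 13 tested sites, where 76.3% of all tested sites were (adjusted p = 0.0156, Fisher's exact test). They were 8 of the 10 sites found in every mock library, where the share was 97%. The 14 sites had 1, 2 and 1 peaks, or 9.52% ± 4.12 against 91.0% ± 12.4 in mock cells (SD, n = 3 and 6, exact permutation test, adjusted p = 0.0357), and 1.80% on the other arms (difference between the chromosomes 8.94 points, exact permutation test, adjusted p = 0.0952). Pericentric recovery after knockdown was 0.78%. The site with a peak in all 3 knockdown libraries was the third dati site, 1 of the 10 present in every mock library, against 49 of 3838 over 6 chromosomes. Its fold enrichment was 3.23, 3.02 and 3.52 there, 14.9, 13.5 and 20.8 in mock and 2.86, 2.43 and 1.96 in mock2. In mock2 it was thus among the last peaks of the list, at ranks 5036, 5160 and 5342. The first dati site had a peak in 1 knockdown library, where it ranked first of all.

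At the 14 Su(Hw) sites the proteins could be followed together, in counts added after the values had been seen. After NURF301 knockdown Su(Hw) had a peak in at least 1 library at 6 sites, namely the first dati site and the third, Asator, the first mGluR site, Actbeta and that between sv and Cals. CP190 had a peak at these 6 and at the pan site, and NURF301 at none. All 6 overlapped a Mod(mdg4)67.2 site, as did 3 of the 8 without a Su(Hw) peak. On the other arms too, fewer Su(Hw) sites with Mod(mdg4)67.2 lacked a peak in every NURF301 knockdown library (8.25%) than sites without it (31.2%). Mock recovery of Su(Hw) on chromosome 4 was 100% at the 9 sites with Mod(mdg4)67.2 and 77.2% ± 30.9 at the 5 without. The first mGluR site had Su(Hw) fold enrichments of 21.3, 7.83 and 15.5 after NURF301 knockdown, against 30.2, 29.98 and 33.3 in mock and 12.2, 18.03 and 11.4 in mock2.

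CP190 peaks lay over 7, 6 and 5 of the 14 Su(Hw) sites after NURF301 knockdown and over 3, 3 and 3 after Su(Hw) knockdown, against 13 or 14 in each mock library. Both changes passed the exact permutation test (adjusted p = 0.02381), and the same changes on the other arms were to 29.1% and 5.10%, against 76.1% in mock cells. The differences between the chromosomes were -8.91 and -6.39 points (adjusted p = 0.333 and 0.370, exact permutation test). The 3 sites with CP190 in every Su(Hw) knockdown library were those of pan, the first dati site and Actbeta. CP190 regions are wider than Su(Hw) regions, so that a CP190 peak beside a Su(Hw) interval, as at the third dati site, is counted at the CP190 site only. After CP190 knockdown 2 and 3 of the 14 had a CP190 peak. NURF301 peaks lay over 0 of the 14 after NURF301 or Su(Hw) knockdown and over 3 and 2 after CP190 knockdown, against 8, 8 and 4 in mock and 8, 3 and 7 in mock2. For NURF301 the changes after NURF301 and Su(Hw) knockdown passed the exact permutation test (adjusted p = 0.02381), and the differences between the chromosomes did not (-22.5 and -22.98 points, each adjusted p = 0.0556, exact permutation test). On the other arms the shares were 0.0074% and 0.47% after these knockdowns, against 22.7% in mock cells, where chromosome 4 had 45.2%. Peaks were thus nearly absent on both, and these differences are close in size to the mock gap of 22.5 points.

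**Figure D5:**
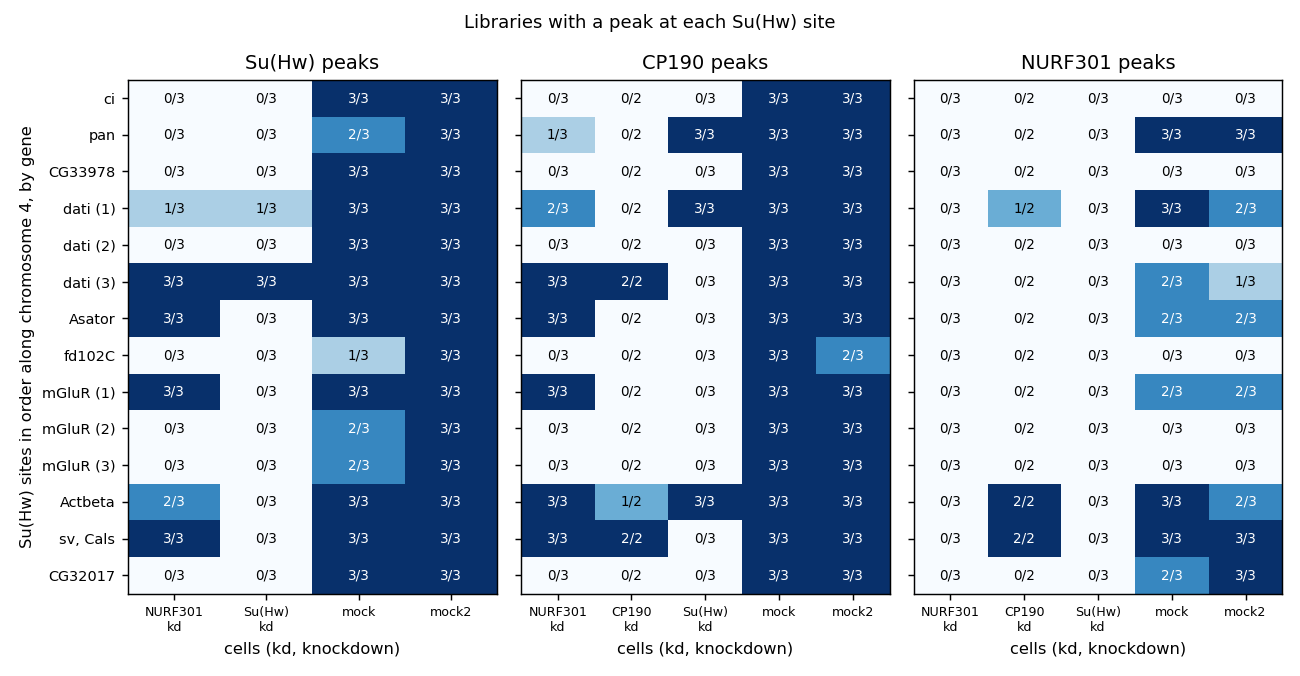
Number of libraries with a Su(Hw), CP190 or NURF301 peak at each of the 14 Su(Hw) sites of chromosome 4, by group; darker cells mark a larger share of the group's libraries. Su(Hw) has a peak in at least 1 NURF301 knockdown library at 6 sites and in at least 1 Su(Hw) knockdown library at 2, against 14 in mock cells.

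Sites that held a partner and sites without it were set side by side, in a comparison also added after the values had been seen. After NURF301 knockdown, CP190 recovery on chromosome 4 was 59.1% ± 4.55 at the 22 sites with NURF301 and 0% at the 9 without, against 72.3% and 16.3% on the other arms. Mock recovery on chromosome 4 was 68.1% ± 35.0 and 78.8% ± 27.4, with the mock2 libraries scored at 59 and 11 sites. Su(Hw) recovery was 57.1% at sites with NURF301 and 14.3% at sites without, against 84.3% and 62.7%. Its mock values on chromosome 4 were 91.7% and 90.5%. After Su(Hw) knockdown, CP190 recovery was 38.5% at the 13 sites with Su(Hw) and 74.1% ± 6.42 at the 18 without, against 7.3% and 74.2% on the other arms. Mock recovery of CP190 on chromosome 4 was 98.7% with and 63.2% ± 40.5 without Su(Hw). That last value mixes site sets, since mock2 libraries were scored at 57 sites without Su(Hw) and mock and knockdown libraries at 18. The difference between sites with and without the partner, in knockdown less mock libraries, passed the exact permutation test after adjustment in none of 16 contrasts (lowest adjusted p = 0.0635).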

How the data were processed

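The 247 regions and the gene lists were chosen with earlier results of these data known, and a second set of counts, marked in the text, was added after the values had been seen. Per the submitters' processing notes, the tools were MACS2 2.2.7.1, Picard 2.25.2, SAMtools 1.12 and Bowtie2 2.4.2; their settings, the control libraries and the genome build are not given in the sources used here. The deposited lists give, per peak and library, the authors' score, which equals 10 times the -log10 q with decimals removed, their fold enrichment as a ratio, and their -log10 p and -log10 q. Peak positions and summit offsets are likewise as the authors deposited them. Chromosome extents in the lists match Release 6, and gene names and positions came from the RefSeq table of that release, which gives no strand. All 50 genes of the lists were found on chromosome 4.

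Python 3.11.15, numpy 2.4.6, pandas 2.3.3, scipy 1.17.1 and matplotlib 3.10.9 were used. Fold enrichment served as a rank within a list. The library was the replicate. Sign-flip tests enumerated 64 sign patterns, knockdown tests 84 splits of 3 and 6 libraries (smallest p 0.02381) or 28 of 2 and 6 (0.0714), with Benjamini-Hochberg adjustment over comparisons that could reach 0.05. Calls had an adjusted p under 0.05. The single-site test was tried on simulated presence values with known answers, and the merging and permutation functions on small made-up cases. The other measures were not simulated. Named sites are, by a fixed rule, the 10 strongest reference sites per antibody, up to 10 lost and up to 5 kept per knockdown, and the members of the gene lists. A site that falls under this rule is not reported here.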

Additional observations from a re-analysis of the deposited data

Results flagged for a closer look

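The mock2 and mock series differed in how CP190 and Su(Hw) peaks of chromosome 4 ranked. The CP190 difference in median percentile between chromosome 4 and the other arms was 32.8 points in mock2 and -14.0 points in mock, 46.8 points apart, with every mock2 library above 0 and every mock library below it. For Su(Hw) it was 29.9 points in mock2 and -7.04 points in mock, 37.0 points apart, in the same arrangement. The log2 ratio of CP190 peak widths was 0.31 in mock2 and -0.46 in mock, a difference of 0.77. An exact permutation test of each difference gave p = 0.1, the smallest that 3 against 3 libraries allow.

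In 2 groups of 6 mock libraries a library lay far from the rest, which chance brings about in about 1 of 20 groups. Each measure with 6 mock libraries was screened, so some such groups can arise by chance. Both involve the same library and are not independent. Mock replicate 3 of Su(Hw) had the shortest mock list, and its peaks on chromosome 4 exceeded those of the other arms by 40.9 points in overlap with Mod(mdg4)67.2 sites, where the other libraries had 20.3 to 27.5 points. The same library had a peak at 66.7% of the chromosome 4 sites it was scored at, where the next lowest library had 92.9%.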

How the results depend on the processing

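Most values kept their direction and their side of 0.05. Per protein-coding gene, the log2 density ratios were -0.035 for CP190, which lost its call, -0.37 for Mod(mdg4)67.2 and -0.55 for GFP, and with lists shortened to the shortest it was -0.98 for GFP. Ranked by -log10 q, the strength difference turned to -7.96 for CP190 and -9.91 for Su(Hw), and was -17.6 for Mod(mdg4)67.2 and 3.48 for GFP.

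For overlap, partner sites in every mock library gave 0.090 points for CP190 with NURF301 (call lost), -14.0 for CP190 with Su(Hw) (call gained), 2.27 for Mod(mdg4)67.2 with NURF301 and 3.33 with CP190. Extended summits gave -13.9 for CP190 with Su(Hw) (call gained), 2.08 for Su(Hw) with CP190 (call lost) and -14.2 for Mod(mdg4)67.2 with CP190. The mock series alone gave -13.3 for NURF301 with CP190, 35.2 for Su(Hw) with NURF301 and 14.1 for Su(Hw) with CP190. The mock2 series alone gave 4.77 for CP190 with NURF301 and 34.2 for Su(Hw) with CP190.

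Against the matching mock series, chromosome 4 recovery of CP190 changed by -79.2 points after NURF301 and -84.2 after CP190 knockdown, and the difference between the chromosomes was -24.7 and 2.15 points. Replicate numbers did not pair the libraries: of 22 correlations between same-numbered libraries, from -0.09 to 0.16, 2 were over 0.1. With the replicate block the same CP190 changes were -79.2 and -83.3 points, and the differences between the chromosomes -24.7 and 2.56 points.

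The difference between the chromosomes turned to 3.62 points for NURF301 after Su(Hw) knockdown at a -log10 q of at least 20. For CP190 after NURF301 knockdown it turned to -20.8 at sites in every mock library and to -7.73 weighted to strength deciles. Calls were gained at sites in every mock library for Su(Hw) after NURF301 (-26.5) and Su(Hw) knockdown (13.2), and with extended summits for NURF301 (3.56) and Su(Hw) (-37.6) after NURF301 knockdown and CP190 after Su(Hw) knockdown (31.6). For NURF301 after CP190 knockdown it was -8.47 weighted to deciles and -0.054 in log2 odds. At a -log10 q of at least 20, 6 CP190 sites of chromosome 4 were called lost after NURF301 and 10 NURF301 sites after Su(Hw) knockdown. The shares over 6 chromosomes at that setting are not given here. The cause was not tested in any of these.

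Leaving out 1 library, chromosome 4 recovery of CP190 after Su(Hw) knockdown changed by -50.4 to -8.47 points and its difference from the other arms was -0.25 to 32.7 points. Sites of chromosome 4 called lost numbered 0 to 13 for CP190 and 0 to 7 for Su(Hw) after NURF301 knockdown, 0 for CP190 after CP190 knockdown and 17 to 29 for NURF301 after Su(Hw) knockdown. These counts stand without the shares over 6 chromosomes and show only how the calls depend on single libraries. Fewer libraries cannot reach an adjusted 0.05 in the tests over libraries, so there only values were compared, and Fisher tests of single sites with 3 against 3 or 1 against 6 libraries, which cannot reach 0.05 either, were not run. With 14 Su(Hw) sites, 1 site is 7.14% of recovery.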
